A study of Homo sapiens with 12 samples.

Results

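The 10 genes described here encode the parts of the desmosome that keratinocytes use: the desmogleins DSG1, DSG2 and DSG3, the desmocollins DSC1, DSC2 and DSC3, the plakophilins PKP1 and PKP3, plakoglobin (JUP) and desmoplakin (DSP). They were taken by symbol from the 60649 gene IDs of both deposited count tables, and all 10 were found once in each table and passed the filter on low counts in every fit. RNA came from tumours grown as xenografts of Cal33, an established human line of head and neck squamous carcinoma, in a study on blocking TEAD, the DNA-binding partner of the co-activators YAP and TAZ. In the first experiment 3 samples treated with SW-682, labelled smTEADi for small molecule TEAD inhibitor, stood beside 3 Vehicle samples. In the second, 3 pTEADi samples with doxycycline (DOX+) stood beside 3 Control samples without it (DOX-). Since only the pTEADi group had doxycycline, effects of doxycycline and of pTEADi cannot be told apart, and the labels do not say whether the Control tumours carried the pTEADi construct. The labels also give no dose, duration or host strain, and nothing in them shows that the samples of a group are separate animals, so the p-values speak only of the variation among these 12 samples, which may be technical. All 12 samples come from 1 cell line.

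Desmosomes rivet neighbouring epithelial cells together and tie the junction to keratin filaments inside each cell. Desmogleins and desmocollins are the cadherins that meet in the space between the cells. Plakoglobin and the plakophilins, all armadillo repeat proteins, hold the cadherin tails, and desmoplakin links this plaque to keratin. In stratified epithelia DSG2 is known mainly from the basal layer and from simple epithelia, DSG3 from the lower layers, and DSG1 and DSC1 from the differentiating upper layers.

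Levels are CPM, counts scaled to a common library size with TMM over all 12 libraries, given per library or as mean ± SD over n = 3. Levels of different genes are compared only as CPM per kb of merged exons. Fold changes are log2, treated over the control of the same experiment, ± SE, and adjusted p-values are Benjamini-Hochberg values from edgeR's quasi-likelihood test over all genes tested, called at 0.05. The libraries held 13576494 to 15433679 counts. All 8 squamous epithelium markers were detected. Summed over KRT5, KRT14 and the rest they were at 41774 to 58898 CPM in smTEADi and 54478 to 74320 in Vehicle. The sums were 65022 to 77552 CPM in pTEADi and 65899 to 78773 in Control, with overlap in both experiments. By edgeR, EPCAM fell with both treatments and KRT17 with pTEADi, and none rose, while 3.48% and 13.6% of all genes tested fell. The median log2 fold changes of this list were -0.32 with SW-682 and -0.06 with pTEADi. Of the host cell markers, CKM, MYL1, DES and ACTC1 of muscle, PECAM1, CDH5 and KDR of endothelium, COL3A1 of fibroblasts, PTPRC and CD163 of leukocytes and ADIPOQ, LEP and CIDEC of adipocytes had under 3 counts in every library. The summed endothelial list, nearly all of it VWF, was 36.3 to 64.2 CPM in smTEADi against 15.9 to 33.1 in Vehicle, and 30.8 to 42.6 in pTEADi against 13.1 to 21.2 in Control. The adipocyte list, mostly FABP4, also stood apart with SW-682, at 36.2 to 66.5 CPM against 23.0 to 30.9 in Vehicle, but overlapped with pTEADi (17.3 to 20.5 against 14.7 to 22.9). With pTEADi the single markers VWF (1.19 ± 0.19) and PLIN4 of adipocytes (0.87 ± 0.24) rose and CSF1R of macrophages fell (-1.39 ± 0.41), the calls of PLIN4 and CSF1R each holding in 3 of 6 fits without 1 library. The muscle, fibroblast and leukocyte sums overlapped between the groups of each experiment. VWF was the only endothelial marker that passed the filter on low counts. With pTEADi, CSF1R was the only 1 of 4 tested leukocyte markers called, and PLIN4 1 of 2 tested adipocyte markers. Whether these transcripts came from host cells, and their part in the results below, was not tested.

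Single control libraries stood apart in these genes. Vehicle 2 was the highest of the 3 Vehicle libraries for 9 of the 10 genes and the lowest for DSG2, whereas it was the highest for 36.2% of all genes tested. Control 2 was the lowest Control library for 8 of the 10 genes, all but PKP3 and JUP, and the lowest for 35.5% of all genes. Control 3 was the highest Control library for 9 of the 10, all but PKP3, against 36.1% of all genes. KRT10, a keratin of differentiating layers, split the same way, at 2792, 6058 and 2636 CPM in Vehicle 1 to 3 and 1688, 847 and 1983 CPM in Control 1 to 3. Values without Vehicle 2 or Control 2 stand beside each of the 10 genes where they change its call or move it over 1.5-fold. Counts without each library follow further on. Vehicle 2 and Control 2 were picked out by their values in these same genes. Leaving out Vehicle 2 therefore favoured larger SW-682 changes in most of them. A pass seen only without Vehicle 2 is thus no separate support for a change.

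With pTEADi, DSG1, DSG3, DSC3 and JUP rose and DSG2 fell, while the other 5 genes did not pass edgeR's test. DESeq2 called 6 of the 10, adding DSC2 and DSP (adjusted p = 0.0228 and 0.0226) and not DSG1. The shares of all genes called that are given below are edgeR's, so the DESeq2 count has none beside it. With SW-682 none of the 10 passed by edgeR's quasi-likelihood test or by limma-voom, in either direction, while 3 passed with DESeq2 (DSG1 and DSC2 up, DSG2 down). In smTEADi, DSG1 and DSG3 were higher and DSG2 lower than in every Vehicle library, as were 15.7% (higher) and 17.3% (lower) of all genes tested. The sign of the fold change was the same in both comparisons for 9 of the 10 genes, all but DSC1. The share of all genes tested that kept their sign was not counted, so this is not shown to be particular to these genes. In the pTEADi comparison the 4 genes that rose stand against 12.7% of all genes tested that rose, and the 1 that fell against 13.6% that fell. In the SW-682 comparison the backgrounds were 2.02% rising and 3.48% falling, and the median log2 fold change of the 10 genes was 0.24 against 0.01 over all genes tested. With pTEADi that median was 0.33, against -0.00067 over all genes. In the SW-682 comparison 3 of the 10 genes (DSG1, DSG2 and DSC2) had an unadjusted p under 0.05, as did 4128 of the 14829 genes tested. Groups did not overlap for 2 genes higher and 1 lower with SW-682, beside 15.7% higher and 17.3% lower of all genes. With pTEADi 7 of the 10 genes lay above and 1 below all Control libraries, beside 20.3% and 21.7% of all genes. In bulk RNA, fewer cells that make a transcript and less transcript per cell cannot be told apart.

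**Figure D1:**
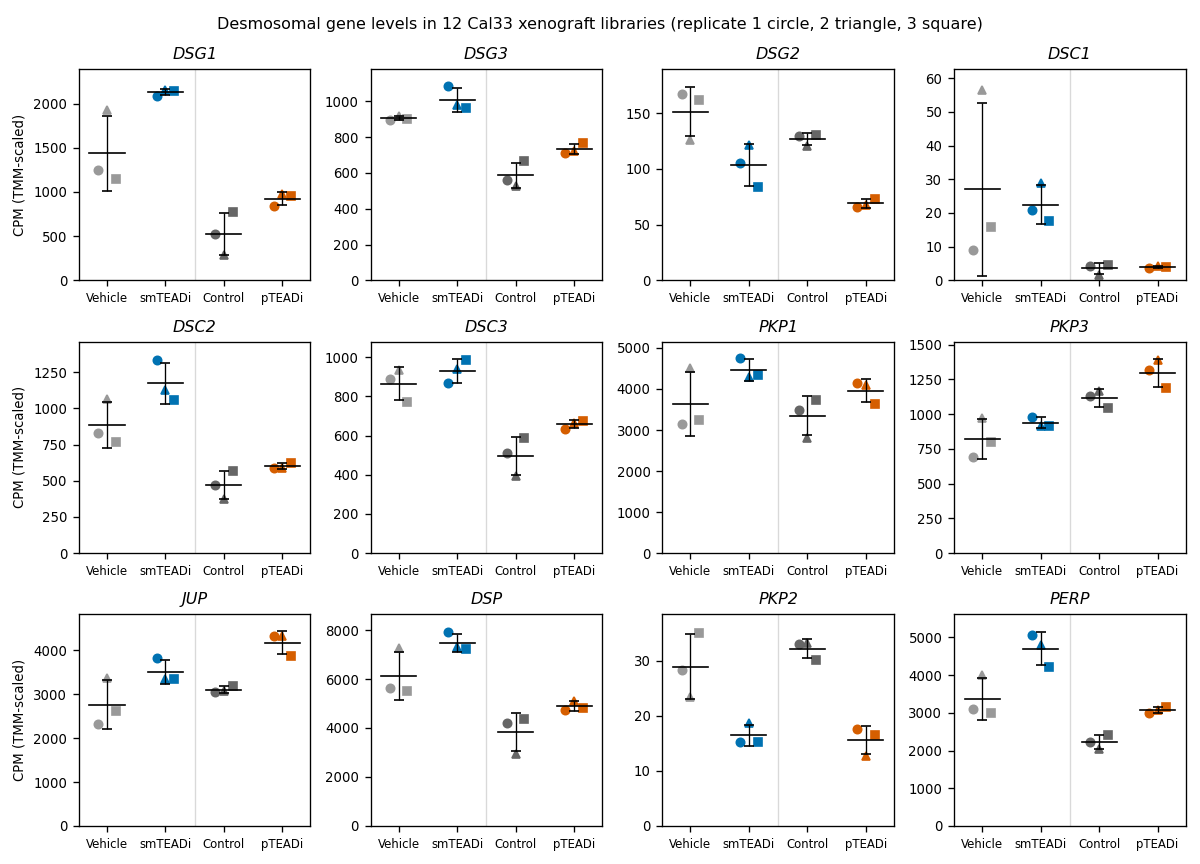
CPM of the 10 desmosomal genes and of PKP2 and PERP in each of the 12 libraries (vertical axis from 0, groups on the horizontal axis, replicate 1 circle, 2 triangle, 3 square, bar for mean ± SD of 3 libraries). DSG1 in smTEADi sits between 2091 and 2156 CPM, above all 3 Vehicle libraries, and DSG2 in pTEADi between 65.9 and 73.1 CPM, below every other library.

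The 3 desmogleins are neighbours on chromosome 18 (GRCh38, plus strand), with DSG1 (ENSG00000134760.6) at chr18:31318160-31359246, DSG3 (ENSG00000134757.5) at chr18:31447741-31478702 and DSG2 (ENSG00000046604.14) at chr18:31498177-31549008. The 250 bases before each start site, from RefSeq (GRCh38.p14), are shown for these 3 genes, a choice made after their responses were seen. That of DSG2 (chr18:31497927-31498176) is 75.2% G or C with 26 CG dinucleotides, while that of DSG1 (chr18:31317910-31318159) is 48.0% with 3 and that of DSG3 (chr18:31447491-31447740) is 42.8% with 4. Over 35116 RefSeq promoters of this length the medians were 58.0% and 11. For DSC3 and the first start site of JUP, genes that rose with pTEADi, they were 60.4% with 18 and 63.6% with 17. Any link between these sequences and the responses was not tested. DSG1 and DSG3 share a run of 20 identical bases, in capitals, which lies 120 to 101 bases before the start of DSG1 and 78 to 59 bases before that of DSG3. Among all 35116 promoters, on either strand, only these 2 hold it. The longest run shared by any other pair of the 6 desmosomal cadherin genes was 8 to 10 bases.
DSG1: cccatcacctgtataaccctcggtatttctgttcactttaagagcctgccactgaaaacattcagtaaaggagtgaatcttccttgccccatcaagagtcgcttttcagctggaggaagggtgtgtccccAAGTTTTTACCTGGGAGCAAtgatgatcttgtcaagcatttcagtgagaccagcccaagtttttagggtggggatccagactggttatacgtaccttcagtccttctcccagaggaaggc
DSG3: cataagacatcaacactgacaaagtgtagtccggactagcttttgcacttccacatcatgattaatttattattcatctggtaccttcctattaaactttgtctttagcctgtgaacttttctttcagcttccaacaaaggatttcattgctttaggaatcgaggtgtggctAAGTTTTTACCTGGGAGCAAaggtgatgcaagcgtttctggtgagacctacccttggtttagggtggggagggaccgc
DSG2: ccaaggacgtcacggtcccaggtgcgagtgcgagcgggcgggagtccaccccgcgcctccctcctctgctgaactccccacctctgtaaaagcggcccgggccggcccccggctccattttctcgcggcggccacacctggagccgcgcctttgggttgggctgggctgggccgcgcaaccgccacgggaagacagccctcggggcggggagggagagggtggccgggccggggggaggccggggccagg

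DSG1, the desmoglein of the upper epidermal layers, was at 522, 291 and 768 CPM in Control 1 to 3 and at 840.3, 981 and 950.4 CPM in pTEADi 1 to 3. Every pTEADi library lay above every Control library, with the widest gap to Control 2. The log2 fold change was 0.81 ± 0.25 (95% interval 0.26 to 1.36, adjusted p = 0.0340), and without Control 2 it was 0.51 (adjusted p = 0.0124). The call held in 2 of 6 fits without 1 library, those without Control 2 or Control 3. It was lost without Control 1 or any 1 pTEADi library (adjusted p up to 0.111) and with DESeq2 (adjusted p = 0.109). In the other experiment DSG1 was at 1249, 1926 and 1143 CPM in Vehicle and 2091, 2156 and 2143 CPM in smTEADi. The 3 smTEADi libraries lay close together and above all Vehicle libraries, of which Vehicle 2 came nearest. The log2 fold change of 0.57 ± 0.19 (0.14 to 0.99) did not pass (adjusted p = 0.0959), and without Vehicle 2 it was 0.83 (adjusted p = 0.0107). DSG1 had the order smTEADi, Vehicle, pTEADi, Control, from high to low, with no overlap between neighbours in that order.

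DSG3, the main desmoglein of the lower layers and the pemphigus vulgaris antigen, was at 562, 529 and 665 CPM in Control and 712, 723 and 765 CPM in pTEADi. All pTEADi libraries were higher, and DSG3 rose by a log2 fold change of 0.32 ± 0.10 (0.10 to 0.55, adjusted p = 0.0388). Without Control 2 the change was 0.25 and no longer passed (adjusted p = 0.0923). Of the 6 fits without 1 library, only that without Control 3 kept the call. In Vehicle DSG3 was at 897, 918 and 902 CPM and in smTEADi at 1086, 978 and 963 CPM. These groups did not overlap either, but the log2 fold change of 0.16 ± 0.11 did not pass (adjusted p = 0.369). DSG3 had the same order of groups as DSG1, with no overlap between neighbours.

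DSG2, the desmoglein that simple epithelia also use, went the other way. It was at 129, 121 and 130.0 CPM in Control and at 65.9, 67.9 and 73.1 CPM in pTEADi, so that every pTEADi library was well below every Control library. The log2 fold change was -0.88 ± 0.08 (-1.06 to -0.70, adjusted p = 4.31e-05), a level 0.544 times that of Control. It passed in all 6 fits that left out 1 library, at -0.92 to -0.84. In Vehicle DSG2 was at 167, 126 and 161 CPM and in smTEADi at 106, 121 and 83.8 CPM. All smTEADi libraries were lower, smTEADi 2 by only a little against Vehicle 2, and the log2 fold change of -0.55 ± 0.16 (-0.90 to -0.20) did not pass (adjusted p = 0.0638). Without Vehicle 2 it was -0.67 (adjusted p = 0.0311). Vehicle, Control and smTEADi overlapped with their neighbours in the order of levels, and pTEADi lay below them all.

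The make-up of the desmogleins was taken as shares of their summed CPM per kb. In both experiments the DSG2 share was lower in every treated library than in every control library, and the DSG3 shares overlapped. The DSG1 shares overlapped with SW-682 and did not with pTEADi. DSG2 made up 7.27% ± 1.44 of desmogleins in Control and 2.76% ± 0.09 in pTEADi, and 4.40% ± 1.19 in Vehicle and 2.27% ± 0.39 in smTEADi (SD, n = 3). DSG1 made up 36.3% ± 8.69 in Control against 47.3% ± 1.75 in pTEADi, and 51.5% ± 6.97 in Vehicle against 60.0% ± 1.92 in smTEADi. The share of DSG3 was 56.5% ± 7.30 in Control and 49.9% ± 1.67 in pTEADi, and 44.1% ± 5.80 in Vehicle and 37.7% ± 1.88 in smTEADi. DSG3 led the desmogleins per kb in all Control libraries and DSG1 in all smTEADi libraries. In Vehicle the lead changed between libraries, and without Vehicle 2 the mean shares were 47.5% for DSG1 and 47.4% for DSG3. Shares are sums that must reach the whole, so they hold no more than the levels do, and no test was run on them. The share of DSG2 depends on the length used: by its longest transcript it was 11.4% in Control, 4.45% in pTEADi, 7.01% in Vehicle and 3.66% in smTEADi, in the same order.

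**Figure D2:**
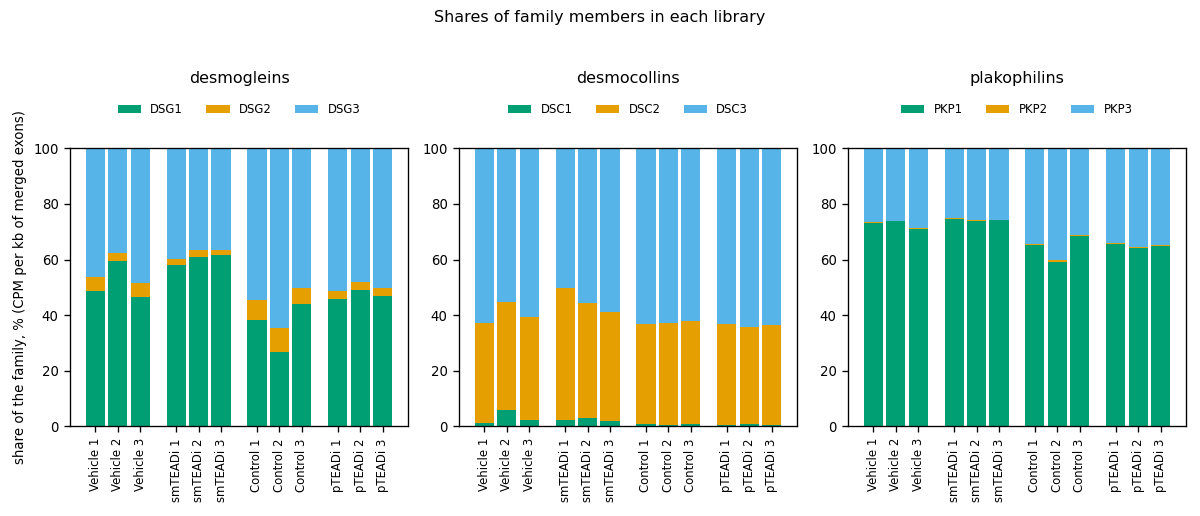
Shares in percent of the summed CPM per kb of merged exons (vertical axis) of desmogleins, desmocollins and plakophilins in each of the 12 libraries (horizontal axis), with 1 colour per gene. DSG2 is the thin band in the desmoglein panel, 7.27% of the family on average in Control and 2.76% in pTEADi, and Control 2 has the lowest DSG1 share.

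The desmocollins lie on the minus strand beside the desmogleins, with DSC3 (ENSG00000134762.17) at chr18:30989365-31042815, DSC2 (ENSG00000134755.18) at chr18:31058840-31102522 and DSC1 (ENSG00000134765.10) at chr18:31129236-31162856. The 7 genes of the cluster, DSG4 included, span 559.6 kb, and the widest gap, 155.3 kb, parts DSC1 from DSG1. DSG2, which fell with pTEADi, lies 19.5 kb from DSG3, which rose. DSC3, the desmocollin of the basal layers, was at 510.4, 394 and 586 CPM in Control and 635, 663 and 677 CPM in pTEADi. All pTEADi libraries were higher, and DSC3 rose by 0.40 ± 0.13 (0.12 to 0.68, adjusted p = 0.0373). Without Control 2 the log2 fold change was 0.26 (adjusted p = 0.0742), and again only the fit without Control 3 kept the call. With SW-682 DSC3 was at 867, 939.7 and 984 CPM against 887, 937 and 773 CPM in Vehicle. These groups overlapped, with a log2 fold change of 0.10 ± 0.12 (-0.16 to 0.37, adjusted p = 0.600), and 0.16 without Vehicle 2.

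DSC2, the most widely expressed desmocollin, was at 470.4, 375 and 567 CPM in Control and 587, 588 and 624 CPM in pTEADi. The groups did not overlap, but the log2 fold change of 0.35 ± 0.13 did not pass by edgeR (adjusted p = 0.0733), while it did with DESeq2. It was 0.20 without Control 2 and passed without Control 3 (0.51, adjusted p = 0.00300). In Vehicle DSC2 was at 827, 1065 and 767 CPM and in smTEADi at 1330.0, 1126 and 1059 CPM, where smTEADi 3 lay just under Vehicle 2. The log2 fold change was 0.40 ± 0.15 (adjusted p = 0.128), and without Vehicle 2 it was 0.56 (adjusted p = 0.0379). DSC1, the desmocollin of the uppermost living layers, was the lowest of the 10 genes, with 22 to 803 counts per library. It was at 8.98, 56.5 and 15.7 CPM in Vehicle and 20.9, 28.9 and 17.6 CPM in smTEADi, so Vehicle 2 alone lay above all treated libraries. In Control DSC1 was at 4.40, 1.58 and 4.61 CPM and in pTEADi at 3.54, 4.19 and 4.09 CPM. Neither change passed, and the intervals were wide, -1.49 to 0.96 with SW-682 and -0.58 to 0.90 with pTEADi. Without Vehicle 2 the sign of the SW-682 change turned, from -0.26 to 0.87, and without Control 2 that of pTEADi turned from 0.16 to -0.20.

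**Figure D3:**
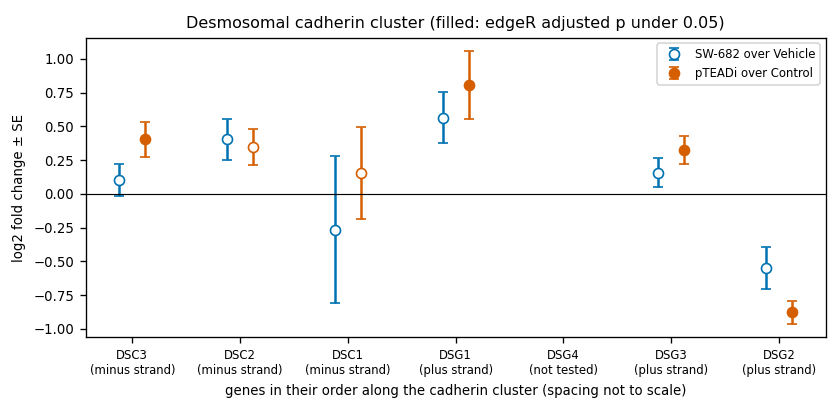
Log2 fold change ± SE (vertical axis) of the cadherin genes in their order along chromosome 18 (horizontal axis, spacing not to scale), for SW-682 in blue and pTEADi in orange, filled where the adjusted p was under 0.05. DSG2 at the right end is at -0.88 with pTEADi next to DSG3 at 0.32, and DSG4 was not tested.

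Among the plaque proteins JUP, plakoglobin (ENSG00000173801.17, chr17:41754604-41786931), was the 1 that rose with pTEADi. It was at 3040.0, 3077 and 3188 CPM in Control and 4326, 4327 and 3879 CPM in pTEADi. The Control libraries were close together and all below pTEADi, and JUP rose by 0.43 ± 0.10 (0.21 to 0.65, adjusted p = 0.00919). JUP passed in all 6 fits that left out 1 library (0.41 to 0.48). With SW-682 it was at 3832, 3343 and 3357 CPM against 2311, 3379 and 2609 CPM in Vehicle. Here Vehicle 2 overlapped smTEADi, and the log2 fold change of 0.34 ± 0.16 did not pass (adjusted p = 0.202). Without Vehicle 2 it was 0.51 (adjusted p = 0.0431).

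DSP, desmoplakin (ENSG00000096696.15, chr6:7541338-7586714), gave 25.1% to 35.6% of all counts of the 10 genes. It was at 4202, 2938 and 4355 CPM in Control and 4719.6, 5110.5 and 4809 CPM in pTEADi, and at 5629, 7271 and 5510.5 CPM in Vehicle and 7902, 7305 and 7238 CPM in smTEADi. The pTEADi libraries were all above Control, while smTEADi 3 lay just under Vehicle 2. Neither change passed by edgeR, with log2 fold changes of 0.35 ± 0.14 with pTEADi (adjusted p = 0.0984) and 0.29 ± 0.15 with SW-682 (adjusted p = 0.259). With pTEADi DSP passed with DESeq2 (adjusted p = 0.0226), without the low-count filter (adjusted p = 0.0130) and without Control 3 (adjusted p = 0.0218), and its log2 fold change was 0.19 without Control 2. The antisense gene DSP-AS1, which overlaps DSP, had 32 to 64 counts per library. For the cadherins the named overlapping antisense genes DSG1-AS1, DSG2-AS1 and DSCAS had 0 to 7 counts. The labels do not state a strand setting, so such reads cannot be assigned with certainty, but they are few beside the cadherin genes other than DSC1.

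PKP1, the plakophilin of the suprabasal layers (ENSG00000081277.13, chr1:201283452-201332993), was at 3498, 2811 and 3742 CPM in Control and 4142, 4101 and 3634 CPM in pTEADi. It was at 3144, 4519 and 3239 CPM in Vehicle and 4766, 4287 and 4346 CPM in smTEADi. Groups overlapped in both experiments, and PKP1 did not pass with pTEADi (0.24 ± 0.13, adjusted p = 0.188, and 0.12 without Control 2 or 0.33 with adjusted p = 0.0474 without Control 3) or SW-682 (0.30 ± 0.17, adjusted p = 0.272, and 0.48 with adjusted p = 0.0415 without Vehicle 2). PKP3, the plakophilin found in nearly all desmosomes of stratified epithelia (ENSG00000184363.10, chr11:392614-404908), was at 1131, 1169 and 1047 CPM in Control and 1316, 1389 and 1188 CPM in pTEADi. These groups stood just apart, and the log2 fold change of 0.22 ± 0.10 did not pass (adjusted p = 0.129). With SW-682 PKP3 was at 982, 913 and 918 CPM against 692, 972 and 797 CPM, with overlap (0.19 ± 0.14, adjusted p = 0.390, and 0.33 without Vehicle 2). The share of PKP1 overlapped between the pTEADi and Control groups but not between smTEADi and Vehicle: PKP1 made up 72.7% ± 1.50 of plakophilins per kb in Vehicle and 74.3% ± 0.33 in smTEADi, and 64.3% ± 4.62 in Control (59.3% in Control 2 to 68.4% in Control 3) and 65.0% ± 0.71 in pTEADi.

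**Figure D4:**
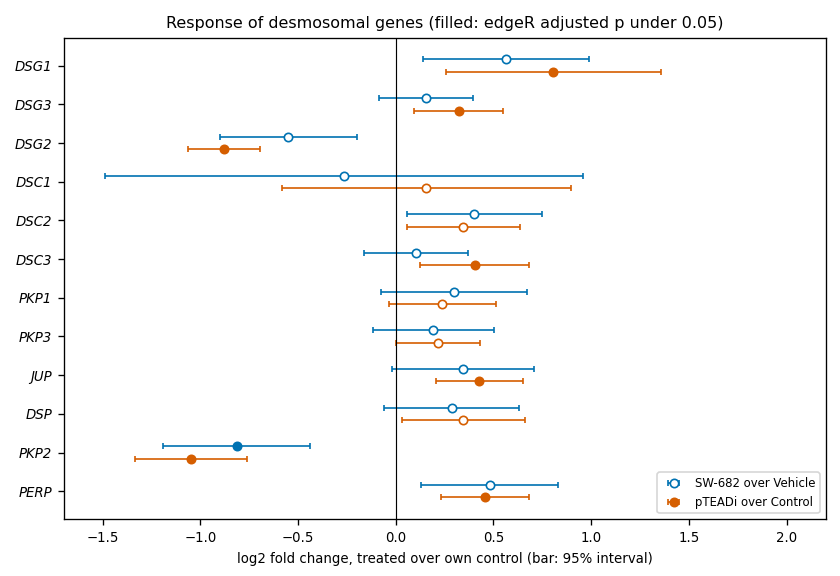
Log2 fold change of 12 desmosomal genes (vertical axis) over their own control, with the 95% interval as a bar (horizontal axis), for SW-682 in blue and pTEADi in orange, filled where the adjusted p was under 0.05. DSG2 and PKP2 lie left of 0 in both comparisons, at -0.55 and -0.81 with SW-682 and -0.88 and -1.05 with pTEADi, and DSC1 is the only gene shown on both sides of 0.

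The test of the difference between the 2 treatments, made in 1 fit of all 12 libraries, passed for none of the 10 genes by edgeR's quasi-likelihood test, DESeq2 or limma-voom. Over all genes tested it passed for 0.0129%, and 1103 genes had an unadjusted p under 0.05, with none of the 10 among them. The largest gaps were in DSC1 (0.42 ± 0.79, pTEADi minus SW-682, interval -1.26 to 2.11), DSG2 (-0.33 ± 0.18, interval -0.72 to 0.06, adjusted p = 0.745) and DSC3 (0.30 ± 0.18, interval -0.09 to 0.69, adjusted p = 0.768). For DSG1 the difference was 0.24 ± 0.37 with an interval from -0.55 to 1.03. These intervals leave room for differences as large as the effects themselves, so the treatments are not shown to act alike on these genes. Without Vehicle 2 and Control 2, a choice made after the data were seen, the difference for DSG1 turned to -0.32.

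Levels of these genes in the control groups of the 2 experiments were not alike. All Vehicle libraries were above all Control libraries for 6 of the 10 genes, against 24.0% of all genes tested: DSG1 (2.73 times by mean CPM), DSC1 (7.67 times, and 3.50 times without Vehicle 2), DSC2 (1.88 times), DSC3 (1.74 times), DSP (1.60 times) and DSG3 (1.55 times). PKP3 was the 1 gene higher in every Control library (1.36 times), against 23.8% of all genes, and DSG2, PKP1 and JUP overlapped. The experiments differ in more than the treatment, so group and experiment cannot be told apart here, and no test was run. Per kb, PKP1, JUP and DSP stood at 585 ± 124, 559.8 ± 112 and 451 ± 72.2 CPM per kb in Vehicle, and the SDs of neighbours in that order overlapped. PKP3 followed at 216 ± 37.2, DSG1 at 195 ± 57.4, DSG3 at 162 ± 1.98, DSC3 at 112 ± 10.9 and DSC2 at 70.9 ± 12.6 CPM per kb, with DSG2 at 15.95 ± 2.34 and DSC1 at 6.33 ± 6.02. In Control, JUP led at 628 ± 15.6 CPM per kb. DSG3 (105 ± 12.7) stood above DSG1 (71.3 ± 32.2) there, whereas in Vehicle DSG1 had the higher mean. These levels use merged exons, of 6211 bases for PKP1, 4942 for JUP and 13619 for DSP. The longest transcripts have 5447, 3505 and 9697 bases, so the order of PKP1, JUP and DSP depends on the length used.

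The spread between libraries was wider in Vehicle than in smTEADi for most of these genes, where Vehicle 2 was the highest Vehicle library for 9 of the 10. The coefficient of variation was larger in Vehicle than in smTEADi for 8 of 10 genes, against 44.9% of all genes tested. It was larger in Control than in pTEADi for 7 of 10 genes, against 56.2% of all genes, which is no clear excess. For DSG1 it was 29.5% in Vehicle and 1.62% in smTEADi, and 45.2% in Control and 8.01% in pTEADi. Together the 10 genes took 1.66% to 2.08% of all counts in Vehicle and 2.09% to 2.17% in smTEADi, and 1.19% to 1.54% in Control and 1.64% to 1.73% in pTEADi. These summed shares are of raw counts, without TMM scaling, and as such did not overlap within either experiment. With SW-682 the gap was narrow, 2.08% against 2.09%. TMM factors were 0.980 for Vehicle 2 and 1.003 for smTEADi 3, so that gap does not carry over to the TMM scale.

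**Figure D5:**
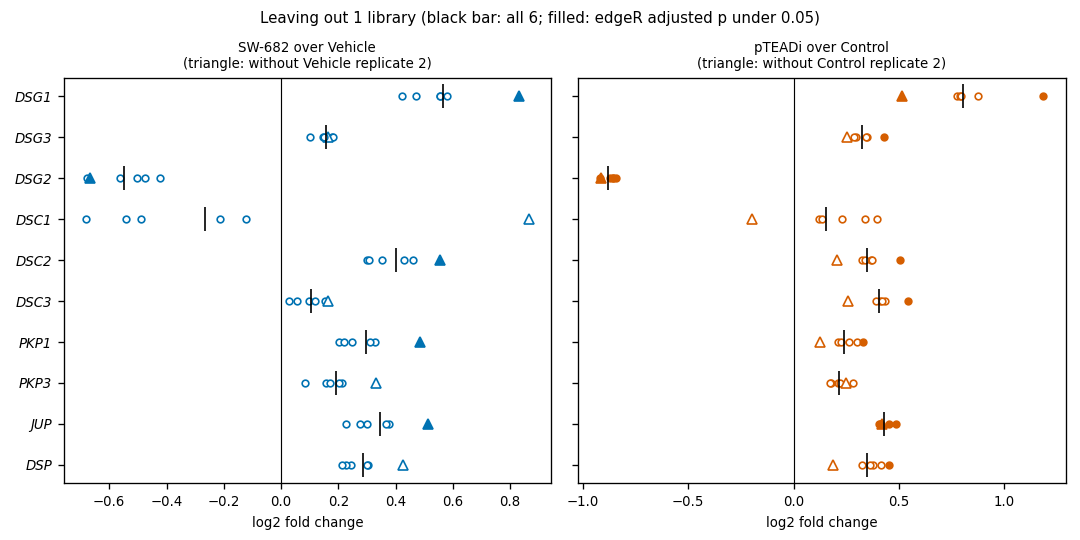
Log2 fold change (horizontal axis) of the 10 genes (vertical axis) in the 6 fits that each leave out 1 library, for SW-682 at the left and pTEADi at the right, with a black bar for all 6 libraries, filled points for an adjusted p under 0.05 and a triangle for the fit without Vehicle 2 or Control 2. Without Vehicle 2 DSG1 moves from 0.57 to 0.83, while DSG2 with pTEADi stays between -0.92 and -0.84.

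How many genes passed depended on single libraries, treated and control. With all 6 libraries of the pTEADi experiment 4 of the 10 genes rose, without Control 2 the count was 2 (DSG1 and JUP), and without Control 3 it was 7. Without Control 1, or without any 1 of the pTEADi libraries, only JUP rose. DSG2 fell in each of these 6 fits. The number of all genes called moved between these fits as well, over the range given at the end, which takes both directions together. The share of all genes that rose in each single fit is not given, so these counts of the 10 genes have no background of their own. With SW-682 the count was 0 in 5 of the 6 fits, and without Vehicle 2 DSG1, DSC2, PKP1 and JUP rose and DSG2 fell, as 1622 genes in all passed there against 816 with every library.

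Of 5 further desmosomal genes, DSG4, a desmoglein of hair and nail, had 1 to 10 counts per library and was not tested. PKP2, the plakophilin of simple epithelia and heart, fell with both treatments. It was at 28.2, 23.5 and 35.1 CPM in Vehicle and 15.3, 18.7 and 15.3 CPM in smTEADi, and at 33.1, 33.2 and 30.2 CPM in Control and 17.5, 12.7 and 16.5 CPM in pTEADi. The groups did not overlap in either experiment, and the log2 fold changes were -0.81 ± 0.17 (adjusted p = 0.0388) and -1.05 ± 0.13 (adjusted p = 0.000210). The SW-682 call held in 2 of 6 fits without 1 library, those without smTEADi 2 or Vehicle 2, and the pTEADi call in 6 of 6. PKP2 made up 0.365% of plakophilins per kb in Vehicle, 0.166% in smTEADi, 0.376% in Control and 0.155% in pTEADi.

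PERP, a membrane protein of desmosomes and a p53 and p63 target, was at 2234, 2051 and 2419.8 CPM in Control and 3003, 3081 and 3143 CPM in pTEADi. It rose by 0.46 ± 0.10 (adjusted p = 0.00670), with no overlap. With SW-682 it was at 5073, 4809 and 4218 CPM against 3106, 4007 and 2999.8 CPM in Vehicle, again with no overlap. The log2 fold change of 0.48 ± 0.16 did not pass by edgeR (adjusted p = 0.0895) but did with DESeq2 (adjusted p = 0.00871). Over 16 alternatives, DESeq2 included, the adjusted p of PERP was under 0.05 in 4. CDSN, the corneodesmosin of the cornified layer, had only 3 to 107 counts per library. It rose with pTEADi (1.78 ± 0.38, adjusted p = 0.00525), from 0.628, 1.29 and 0.628 CPM to 3.09, 2.24 and 3.46 CPM, and in Vehicle it ranged from 0.206 to 7.52 CPM, the highest being Vehicle 2. The CDSN call was lost in 1 fit of all 12 libraries (adjusted p = 0.208). PKP4, a broadly expressed relative of the plakophilins, was at 62.8 to 74.3 CPM in all 12 libraries, and its intervals were -0.17 to 0.24 with SW-682 and -0.20 to 0.20 with pTEADi.

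Of 12 keratins, which desmoplakin anchors, KRT4 and KRT13 of the mucosal upper layers rose with SW-682 (1.23 ± 0.22 and 0.91 ± 0.22), and KRT1, KRT10, KRT4 and KRT13 rose with pTEADi (1.55 ± 0.24, 1.74 ± 0.25, 1.98 ± 0.24 and 1.36 ± 0.21) while KRT17 fell (-1.31 ± 0.17). Without 1 library the SW-682 calls held in 3 of 6 fits for KRT4 and 1 of 6 for KRT13, and the pTEADi calls of these keratins in 6 of 6. The list medians were 0.24 and 0.30. Of 5 tested genes that cut or guard corneodesmosomes, SPINK5, a protease inhibitor, rose with SW-682 (1.17 ± 0.29), a call that held in 1 of 6 fits without 1 library, that without Vehicle 2. With pTEADi SPINK5 (1.54 ± 0.14), KLK7 (0.70 ± 0.10), KLK8 (0.46 ± 0.10) and KLK13 (1.25 ± 0.41) rose and KLK5 fell (-0.99 ± 0.11), with medians of 0.46 and 0.70. KLK7, KLK8, KLK13 and KLK5 are kallikrein proteases, and the KLK13 call held in 2 of 6 fits without 1 library. Over the 10 other alternatives with pTEADi, KLK7 and KLK8 were each under 0.05 in 9 (adjusted p up to 0.0767 and 0.118). KLK13 was in 7.

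Of 10 tested adherens junction genes, CDH3 (P-cadherin) fell with both treatments, by -0.67 ± 0.13 with SW-682 and -0.81 ± 0.10 with pTEADi on the log2 scale. With pTEADi CTNNB1 (beta-catenin, the close relative of plakoglobin) also fell (-0.35 ± 0.08), and NECTIN4 (0.46 ± 0.13) and AFDN (0.31 ± 0.10) rose, with list medians of 0.25 and 0.18. Without 1 library the CDH3 call held in 3 of 6 fits with SW-682 and 6 of 6 with pTEADi, and with pTEADi that of CTNNB1 held in 5, NECTIN4 in 3 and AFDN in 2 of 6. NECTIN4 and AFDN were also lost in 1 fit of all 12 libraries (adjusted p = 0.156 and 0.174). Of 6 hemidesmosome genes, which hold cells to the basement membrane, none passed with SW-682 by edgeR or limma-voom and 2 with DESeq2, and 2 had an unadjusted p under 0.05, among them ITGB4 (-0.51 ± 0.14). With pTEADi ITGB4 fell (-0.37 ± 0.10, held in 3 of 6 fits without 1 library), and the medians were -0.25 and -0.10. None of 6 sheddases and kinases, among them ADAM10 and EGFR, passed in either comparison by edgeR, DESeq2 or limma-voom. In edgeR's test 0 with SW-682 and 3 with pTEADi had an unadjusted p under 0.05. Over all genes tested this held for 4128 of 14829 and 5614 of 14705. These backgrounds stand beside the other SW-682 counts of this paragraph too, where DESeq2 called 1893 genes in all. Of 8 transcription factors of epithelial differentiation or its loss, none passed with SW-682 by edgeR, though 5 had an unadjusted p under 0.05 and 4 passed with DESeq2. With pTEADi GRHL3 (1.01 ± 0.13), GRHL1 (0.69 ± 0.13), ZNF750 (0.63 ± 0.12) and KLF5 (0.48 ± 0.12) rose and SNAI2, a repressor of epithelial genes, fell (-0.52 ± 0.12), and the medians were 0.30 and 0.26. The KLF5 call held in 3 of 6 fits without 1 library and the other 4 in 6 of 6. Over the 10 other alternatives GRHL1 was under 0.05 in 9 (adjusted p up to 0.0527). The difference between treatments passed for no gene of these lists by edgeR, DESeq2 or limma-voom, and 1 keratin had an unadjusted p under 0.05.

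RefSeq start sites were found for 9 of the 10 genes, 2 each for DSC2 and JUP, of which the first listed was searched and compared. Both strands of the 250 bases before them were searched for 5 short motifs. The TEAD motif GGAATG was in none of the 9, against 11.9% of all promoters, and the GRHL motif AACCNGTT in none against 1.49%. The AP-1 motif TGANTCA was also in none, against 6.57%. The E-box CACCTG, a motif bound by SNAI factors, was upstream of DSG1, DSG2, DSC2 and DSP, against 17.5% of all promoters, and the GC box GGGCGG upstream of DSG2, DSC2, PKP1, DSP and JUP, against 42.6%. These are matches of letters in a short window, and the data hold no measure of binding there. CG dinucleotides numbered 33 upstream of DSP, 18 of DSC3, 17 of PKP1, 17 and 13 at the 2 start sites of JUP, 12 and 19 at the 2 of DSC2, and 1 of DSC1, beside 26, 4 and 3 for DSG2, DSG3 and DSG1 in the sequences printed above.

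The genes whose log2 CPM followed each of the 10 most closely were taken from 10627 protein-coding genes, as the pair with the highest Pearson r over the 12 libraries. These libraries fall into 2 experiments with different levels, so r holds that gap as well as the treatment, and it is given as a description. DSG1 was followed most closely by GJA1, the gap junction protein connexin 43 (r = 0.988), and SMIM14 (0.982), and DSP by GJA1 (0.980) and ELOVL7 (0.969). ELOVL7, a fatty acid elongase, also stood beside DSC2 (0.987), with LYST (0.987). For DSG3 they were LAMP2 (0.986), a lysosomal membrane protein, and TRIM38 (0.984), for DSC3 RIN2 (0.992) and ADH7 (0.990), and for DSC1 HSPA2 (0.969) and KRT2 (0.958), a keratin of the upper epidermis. JUP was nearest to USP20 (0.981) and LAD1 (0.977), PKP1 to LDB1 (0.969) and UNK (0.940), and PKP3 to INAFM1 (0.989) and PTDSS2 (0.985). DSG2, the only one of the 10 that fell with pTEADi, was nearest to ARHGAP21 (0.977) and RAD21 (0.971), a cohesin subunit.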

How the data were processed

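Poly-T selected RNA of 12 Cal33 xenograft tumour samples was read as 150 bp pairs. The authors deposited expected counts per gene, 1 table per experiment, made with STAR 2.7.9a and RSEM 1.3.1 per the submitters' processing notes, on GRCh38 with Gencode 38 per the series' design text. Of these values 6.77% to 7.27% per library were not whole. The strand setting and any separation of mouse host reads are not given in the sources used here.

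Expected counts were rounded and tested with edgeR 4.0.16 in R 4.3.3: filterByExpr with a minimum count of 10, TMM scaling, a two-sided quasi-likelihood F test and a Benjamini-Hochberg threshold of 0.05, each treatment against its own control. The difference of effects was tested in 1 fit of 12 libraries. The SE is the log2 fold change over the square root of F. The scripts were tested on simulated data. Symbols and positions came from Gencode 44, and upstream sequences from RefSeq. No 2 libraries of a group were duplicates (chi-square per degree of freedom 6.97 to 31.1). Precision is set by 3 libraries per group and depths of 13576494 to 15433679 counts.

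The 10 genes and the lists beside them were chosen with earlier results of these data known. Named genes were the 10 genes, 5 further desmosomal genes, up to 4 genes with the smallest p of each list and comparison, and the 2 genes most like each of the 10, chosen from protein-coding genes that averaged 5 CPM or more. KRT10 in the control libraries, EPCAM among squamous markers, and VWF, PLIN4, CSF1R and FABP4 among host markers were named after their values were seen. So were list genes beyond 4 in a comparison. The alternatives tried were scaling by RLE or upper quartile, no filter, 10 counts in 3 libraries, DESeq2 1.42.0, limma-voom (limma 3.58.1), unrounded counts, a threshold of 0.01, a replicate block, 1 fit of all 12 libraries, the longest transcript as gene length, and leaving out libraries.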

Additional observations from a re-analysis of the deposited data

How the results depend on the processing

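Of all genes, 816 passed with SW-682, 3864 with pTEADi and 2 for the difference. Without the low-count filter the counts for SW-682 and the difference were 2101 and 377, with DESeq2 1893 and 43, at a threshold of 0.01 they were 0 and 0, and 1 fit of 12 libraries gave 2303 for SW-682. At 0.01 pTEADi gave 2138 genes and 1 of the 10 desmosomal genes that rose. Leaving out 1 library gave 0 to 1622 genes with SW-682, 2325 to 4379 with pTEADi and 0 to 20 for the difference. Of the 10 genes, 0 to 4 then rose and 0 to 1 fell with SW-682, and 1 to 7 rose with pTEADi. With SW-682, 1 rose and 1 fell without the filter, 2 rose and 1 fell with DESeq2, and 1 fell in the fit of 12 libraries. With DESeq2, DSG1 no longer passed with pTEADi (adjusted p = 0.109, and 7.59e-13 to 0.111 over its alternatives), while JUP and DSG2 passed in all 16 alternatives. Among the lists with SW-682, 4 adherens junction genes passed with DESeq2 against 1, and 5 keratins with limma-voom and 4 with DESeq2 against 2. The cause of these shifts was not tested.

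With the replicate block the counts were 0 genes for SW-682 and 0 for the difference, DSC1 with SW-682 was at 0.092, PKP2 with SW-682 did not pass (adjusted p = 0.0901), and DSC2 with pTEADi passed (adjusted p = 0.0364). Libraries with the same number did not deviate together (r across genes -0.193 to 0.178), and 1 of 6 libraries in the SW-682 experiment and 0 of 6 in the other correlated best with its own number, so the numbers were not taken as pairs.

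The sign turned for some values. With SW-682, DSC1 was at 0.15 with limma-voom and -0.68 to 0.87 over fits that left out 1 library, and CDSN at -0.30 to 2.98. With pTEADi, PKP4 was at -0.0066 with upper-quartile scaling and -0.054 to 0.075 without 1 library, and DSC1 at -0.20 to 0.40. For the difference, leaving out 1 library gave DSG1 -0.048 to 0.62, DSC1 -0.71 to 0.84, DSC2 -0.20 to 0.10, PKP1 -0.24 to 0.038, PKP3 -0.11 to 0.13, DSP -0.096 to 0.17 and JUP -0.081 to 0.20. Without Vehicle 2 and Control 2 together, chosen after seeing the data, it was -0.32 for DSG1, -1.06 for DSC1, -0.081 for PKP3, -0.24 for DSP and -0.090 for JUP. By the longest transcript, 22 of 36 family shares moved by less than 1 SD. At these depths DSC1, CDSN and DSG4 rest on the fewest counts.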
